A study of Macaca fascicularis with 6 samples.

Results

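The 9 genes described here are the VEGF ligands VEGFA, VEGFB, VEGFC and PGF, the tyrosine kinase receptors FLT1 (VEGFR1), KDR (VEGFR2) and FLT4 (VEGFR3), and the co-receptors NRP1 and NRP2. They were taken by symbol from the 28623 genes counted in the lung of 6 male cynomolgus monkeys, and each symbol had 1 row. The 3 control monkeys (replicates 1, 2 and 3) had been given saline. The 3 asthma monkeys (replicates 8, 10 and 11) had been sensitised under the skin with an antigen of the roundworm A.suum in adjuvant and then challenged with the antigen through the nose. The monkeys were 3 to 5 years old, and each gave 1 library of single cells by droplet-based scRNA-seq, which counts transcripts by unique molecular identifiers (UMIs) at their 3′ ends.

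VEGF ligands are secreted factors that act mainly on endothelial cells, the lining of blood and lymph vessels. VEGFA signals for growth and permeability chiefly through KDR, while FLT1 binds VEGFA, VEGFB and PGF and can act as a trap for them. FLT4 is the receptor of VEGFC and is best known from lymphatic vessels, and the neuropilins NRP1 and NRP2 bind ligands of this family beside semaphorins. In the lung, the alveolar epithelium is a known source of VEGFA for the capillaries that lie against it.

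The libraries held 29014556 to 41489879 UMIs. Quality control kept 24235 of 35133 barcodes, slightly fewer than the number of cells that the study states. Control replicates 1, 2 and 3 had 4339, 3200 and 3902 cells, and asthma replicates 8, 10 and 11 had 4136, 4620 and 4038, with median UMIs per cell from 3835 to 5048.5. The 9 genes accounted for 55514 of the 174483457 UMIs in these cells, from 592 UMIs of FLT4 to 18408 of NRP2. Cells were clustered without the 9 genes and named from marker genes, so that a name ending in -like rests on other genes. Levels are given as CPM, the counts-per-million scale, of the summed cells of a type in a library with at least 10 such cells, and SDs are over libraries.

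Some groups of cells stood apart. Among the cells, 75 barcode sequences occurred in more than 1 library. Sub-clusters with markers of several classes held 2365 cells, which were left out of the cell types, and of the cells first grouped as MC-like (mesenchymal cells in the study's naming) these were 56.6% in the control group and 9.31% in the asthma group. The MC markers used here were led by ITLN1 and included WT1, LRRN4 and BNC1, which are mesothelial markers. Control libraries held few endothelial-like cells, namely 47, 36 and 107 against 261, 236 and 344 in the asthma libraries. Of these, 25.5%, 36.1% and 8.41% were capillary EC-like in the control and 67.4%, 79.7% and 80.5% in the asthma libraries. Most defining markers were present, but CLDN5, a tight junction gene, was at only 11.04 CPM in endothelial-like cells. CALB2 was at 0 in MC-like cells, TFF3 at 0 in lymphatic EC-like cells and SOSTDC1 and CHRM2 at 0 in aerocyte-like cells. BTNL9 was at 0.509 CPM in capillary EC-like cells.

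**Figure D1:**
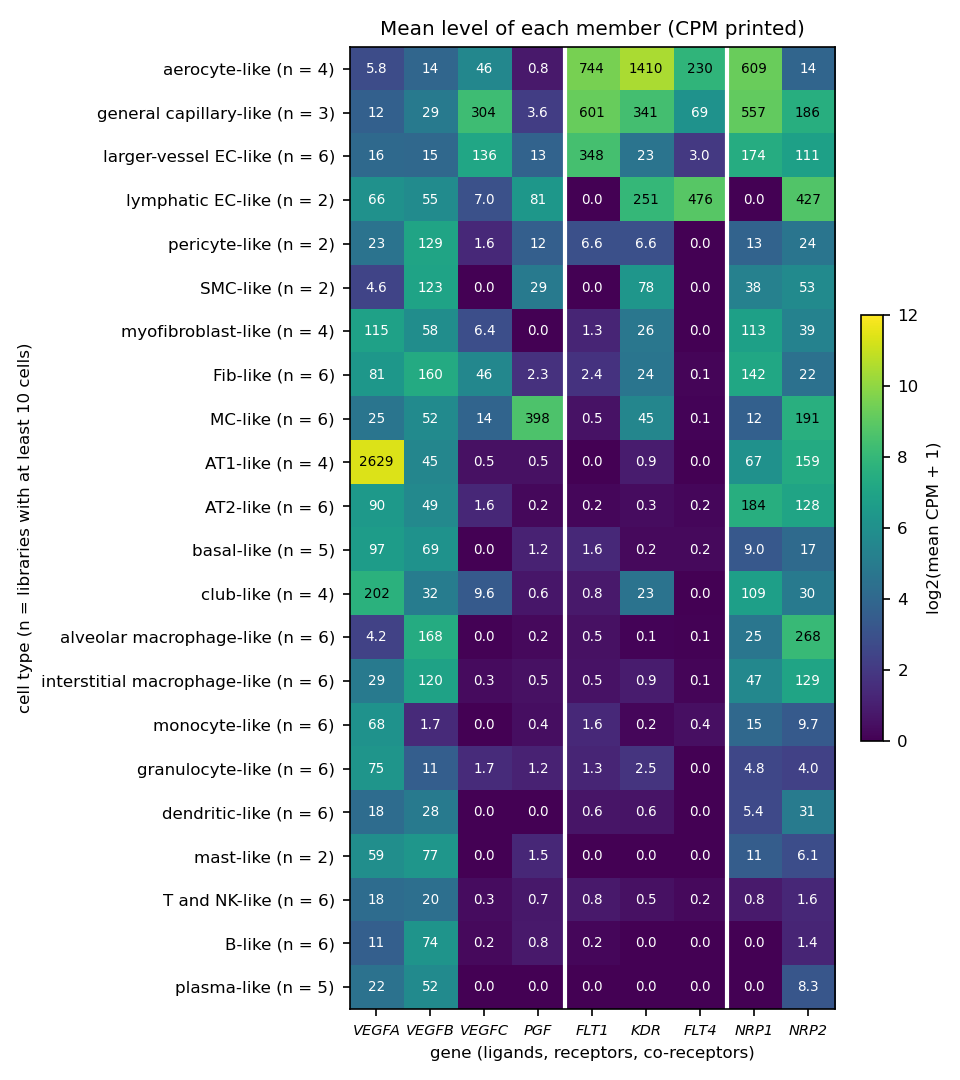
Mean level of the 9 genes (columns) in 22 cell types (rows), with the CPM printed in each cell and the colour showing log2(CPM + 1). VEGFA peaked at 2629 CPM in AT1-like cells, PGF at 398 CPM in MC-like cells and KDR at 1410 CPM in aerocyte-like cells.

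VEGFA was at its highest level in alveolar type 1 (AT1)-like cells, the thin cells of the gas exchange surface. It was at 1471 CPM in control replicate 1, the only control library with at least 10 AT1-like cells, and at 2886, 3761 and 2396 CPM in asthma replicates 8, 10 and 11. The 4 and 3 AT1-like cells of control replicates 2 and 3, too few to enter, were at 3135 and 3721 CPM, within the range of the asthma libraries. After each cell was thinned to 2000 UMIs, 97.5% ± 2.17 (SD, n = 3) of AT1-like cells of the asthma libraries had a VEGFA UMI, and 98.0% ± 2.54 without thinning. The thinned share was 15.4% ± 4.69 in AT2-like cells of the same libraries and 3.11% in T and NK-like cells.

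In AT2-like cells, which make surfactant, VEGFA was at 88.6, 123 and 65.5 CPM in the control libraries and at 106, 94.1 and 63.0 CPM in the asthma libraries, and the groups overlapped. AT1-like cells exceeded AT2-like cells by 4.83 ± 0.58 (SD, n = 4) on the log2(CPM + 1) scale in 4 of 4 libraries (two-sided exact sign-flip test over libraries, p = 0.125, the smallest that 4 libraries allow). Club-like cells of the airway followed AT1-like cells with 202 ± 43.5 CPM (SD, n = 4). Next came myofibroblast-like, basal-like, AT2-like, Fib-like (fibroblast-like), granulocyte-like and monocyte-like cells, with means from 115 to 68.3 CPM, and each of these neighbours in the order lay within the spread of the next.

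Macrophage-like cells as a class held little VEGFA, with means of 8.75 ± 3.35 CPM (SD, n = 6) over the class and 4.24 ± 4.15 CPM in alveolar macrophage-like cells. Interstitial macrophage-like cells had more, with 28.7 ± 9.86 CPM (SD, n = 6). Epithelial-like cells as a class exceeded macrophage-like cells in 6 of 6 libraries, by 5.36 ± 1.14 (SD) on the log2(CPM + 1) scale (exact sign-flip test, two-sided p = 0.03125, the smallest that 6 libraries allow). In all, 21 pairs of cell types were compared in this way, 16 had at least 4 libraries and were tested, and the p-values are given unadjusted. Granulocyte-like cells were above monocyte-like cells in 3 of 6 libraries only, with a difference in VEGFA of 0.16 ± 0.89 (SD, n = 6, exact p = 0.78125).

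VEGFB, a ligand of FLT1 that is linked to lipid handling and vessel survival, was spread over more cell types. In alveolar macrophage-like cells it was at 168, 140 and 179 CPM in the control and 173, 137 and 212 CPM in the asthma libraries, and the groups overlapped. Fib-like cells had 193, 189 and 175 CPM in the control and 117, 139 and 147 CPM in the asthma libraries, each asthma library being below each control library. Alveolar macrophage-like, Fib-like, pericyte-like, SMC-like (smooth muscle cell-like) and interstitial macrophage-like cells, from 168 to 120 CPM on average, each lay within the spread of the next in the order. T and NK-like cells had 20 ± 4.30 CPM (SD, n = 6). Fib-like cells exceeded them in 6 of 6 libraries by 2.94 ± 0.56 on the log2 scale (exact sign-flip test, p = 0.03125). Macrophage-like cells gave 68.8% of the VEGFB UMIs.

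VEGFC, the ligand of FLT4 that is known for lymphatic growth, had its highest mean in general capillary-like cells, with 263, 297 and 352 CPM in the 3 asthma libraries. No control library had enough of these cells. Larger-vessel EC-like cells, which carry markers of arteries and veins, had 78.7, 72.0 and 58.8 CPM in the control and 133, 111 and 360 CPM in the asthma libraries, the latter all above the former. Their 360 CPM in asthma replicate 11 lay above the 352 CPM of general capillary-like cells. Aerocyte-like cells, the other kind of capillary EC-like cells, had 46.2 ± 49.8 CPM (SD, n = 4), with 0 UMIs in control replicate 2, which allows up to 113 CPM. After thinning to 2000 UMIs, 40.0% ± 5.09 of general capillary-like and 11.8% ± 6.35 of aerocyte-like cells of the asthma libraries had a VEGFC UMI, against 0.046% of T and NK-like cells. Without thinning the shares were 44.0% and 12.3%. Fib-like cells had 45.6 ± 25.6 CPM (SD, n = 6). Capillary EC-like cells as a whole were below larger-vessel EC-like cells in 4 of 5 libraries, but the difference of -1.65 ± 2.60 (SD) on the log2 scale did not pass the test (exact p = 0.125, smallest possible 0.0625). With a library left out it ranged from -2.08 to -0.52. Capillary EC-like cells of control replicates 1 and 2 had 1 and 0 UMIs. There 3 counts would be 83.6 and 113 CPM, above the larger-vessel values, so the direction in these libraries is not settled.

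PGF, placenta growth factor, which binds FLT1 and not KDR, was nearly confined to MC-like cells, which gave 86.4% of its UMIs and were named from mesothelial markers. It was at 445, 380 and 270 CPM in MC-like cells of the control libraries and at 316, 493 and 483 CPM in those of the asthma libraries. The groups overlapped. After thinning, 48.6% ± 9.63 (SD, n = 6) of MC-like cells had a PGF UMI, against 0.174% of T and NK-like cells, and without thinning 80.5% ± 7.90 had one. Lymphatic EC-like cells followed with 81.1 CPM over 2 libraries. Larger-vessel EC-like cells had 7.87, 16 and 33.2 CPM in the control and 9.77, 12.3 and 0 CPM in the asthma libraries, where 0 allows up to 12.6 CPM. Capillary EC-like cells had 3.95, 1.51 and 0 CPM in the asthma libraries and 0 UMIs in control replicates 1 and 2, which allows up to 83.6 and 113 CPM. Their difference from larger-vessel EC-like cells was -2.15 ± 1.62 (SD, n = 5) on the log2 scale (exact sign-flip test, p = 0.125). At these limits its direction is not settled in control replicates 1 and 2.

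**Figure D2:**
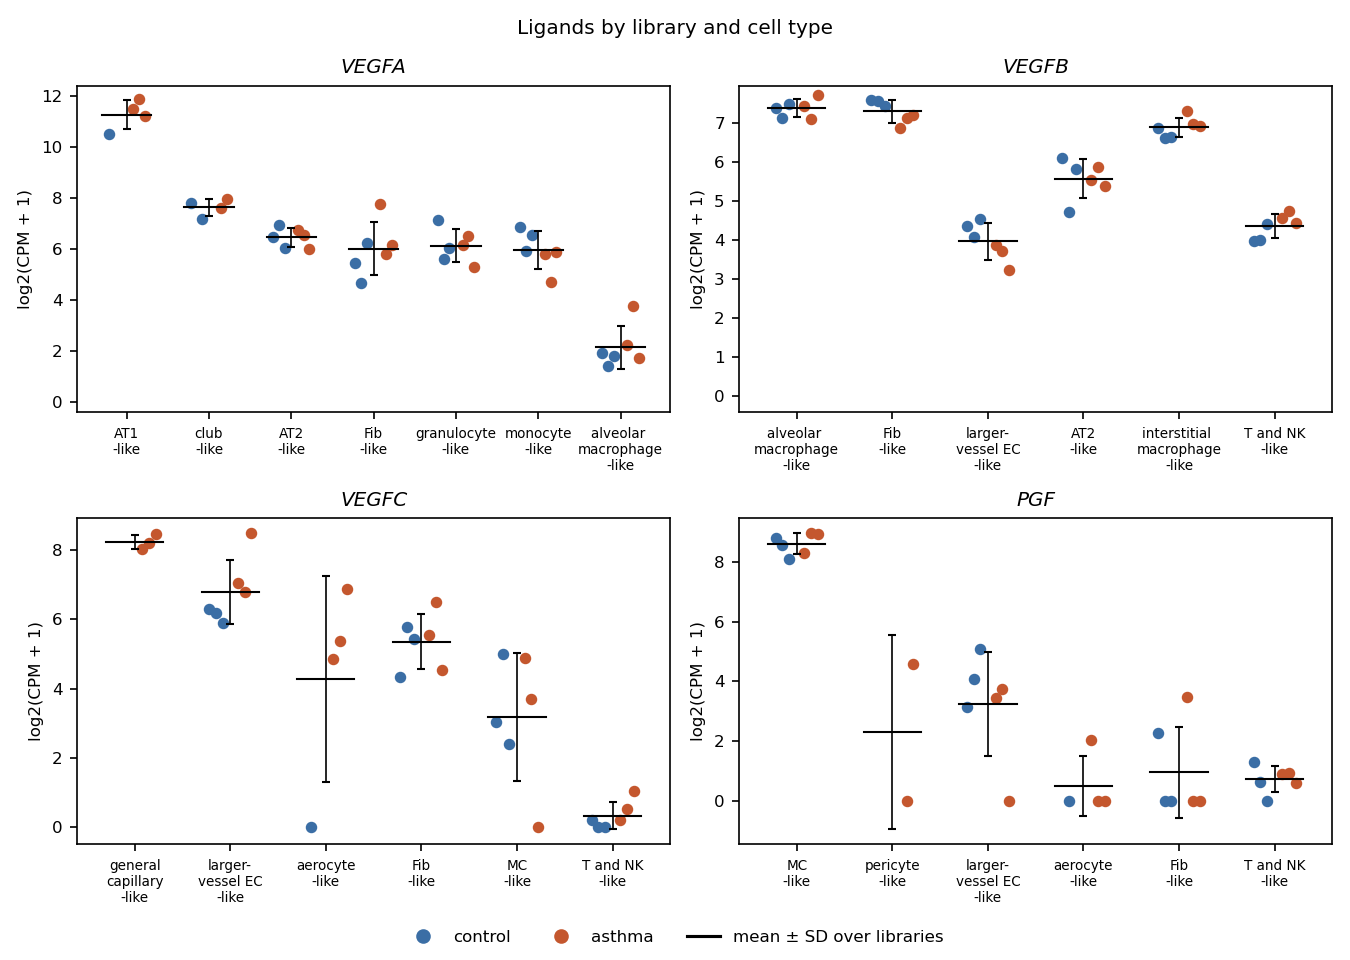
Levels of VEGFA, VEGFB, VEGFC and PGF by library, as log2(CPM + 1), in selected cell types, with points for single libraries and bars for the mean ± SD. VEGFA of AT1-like cells lies between 1471 and 3761 CPM in every library shown, and PGF of MC-like cells between 270 and 493 CPM.

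The receptors divided the endothelial-like cells. KDR, the main signalling receptor of VEGFA, was at 2489 CPM in aerocyte-like cells of control replicate 2 and at 1015, 1223 and 915 CPM in those of the asthma libraries. General capillary-like cells had 362, 286 and 374 CPM in the asthma libraries. Larger-vessel EC-like cells had 3.94, 24.0 and 3.01 CPM in the control and 39.1, 20.5 and 50.3 CPM in the asthma libraries, and the groups overlapped. Capillary EC-like cells thus lay above larger-vessel EC-like cells in 5 of 5 libraries, by 5.62 ± 1.91 (SD) on the log2(CPM + 1) scale (exact sign-flip test, two-sided p = 0.0625, the smallest that 5 libraries allow).

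Within the capillary EC-like cells of the asthma libraries, KDR was higher in aerocyte-like than in general capillary-like cells in 3 of 3 libraries, by 1.62 ± 0.42 (SD) on the log2 scale, too few libraries for a test. After thinning to 2000 UMIs, 77.4% ± 7.01 (SD, n = 3) of aerocyte-like and 37.4% ± 6.01 of general capillary-like cells had a KDR UMI, and 83.0% ± 14.9 and 48.2% ± 3.95 without thinning, which had left out 94 and 135 shallower cells. Both KDR and FLT1 were found in 57.7% ± 6.41 and 24.8% ± 3.76 of these cells. The KDR share was 0.057% in T and NK-like cells. Lymphatic EC-like cells had 180 and 321 CPM in the 2 libraries with enough of them. Outside the endothelium, MC-like cells had 44.8 ± 35.9 CPM of KDR (SD, n = 6), below endothelial-like cells in 6 of 6 libraries by a mean of 2.94 ± 1.32 on the log2 scale (exact p = 0.03125).

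FLT1, a receptor with weak kinase activity, was found in capillary and larger-vessel EC-like cells alike. Aerocyte-like cells had 943 CPM in control replicate 2 and 629, 720 and 682 CPM in the asthma libraries, and general capillary-like cells 614, 609 and 580 CPM in the asthma libraries. Larger-vessel EC-like cells had 283, 184 and 243 CPM in the control and 338, 468 and 570 CPM in the asthma libraries, each asthma library being above each control library. Capillary EC-like cells were higher than larger-vessel EC-like cells in 5 of 5 libraries, but by only 0.93 ± 0.85 (SD) on the log2 scale (exact p = 0.0625). Aerocyte-like and general capillary-like cells differed by 0.17 ± 0.12 (SD, n = 3), and the sign of this difference turned under other settings, which are given below. In lymphatic EC-like cells no FLT1 UMI was counted among 345872, which allows up to 8.67 CPM. Endothelial-like cells gave 88.5% of the FLT1 UMIs.

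FLT4 was highest in lymphatic EC-like cells, with 561 and 391 CPM in the 2 libraries that had at least 10 of them. Aerocyte-like cells had 264 CPM in control replicate 2 and 219, 290 and 149 CPM in the asthma libraries, so FLT4 was not limited to lymphatic cells. General capillary-like cells had 71.3, 57.3 and 78.5 CPM in the asthma libraries. Larger-vessel EC-like cells had 3.03 ± 4.94 CPM (SD, n = 6), from 5 UMIs in all. The difference between capillary and larger-vessel EC-like cells was 6.39 ± 2.21 (SD) on the log2 scale, with capillary cells higher in 5 of 5 libraries (exact p = 0.0625). Larger-vessel EC-like cells had 0 UMIs in control replicates 1 and 2 and asthma replicate 8, which allows up to 11.8, 24.0 and 5.86 CPM. The size of the difference therefore rests on the 1 CPM added and is not exact, while its direction holds at these limits.

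**Figure D3:**
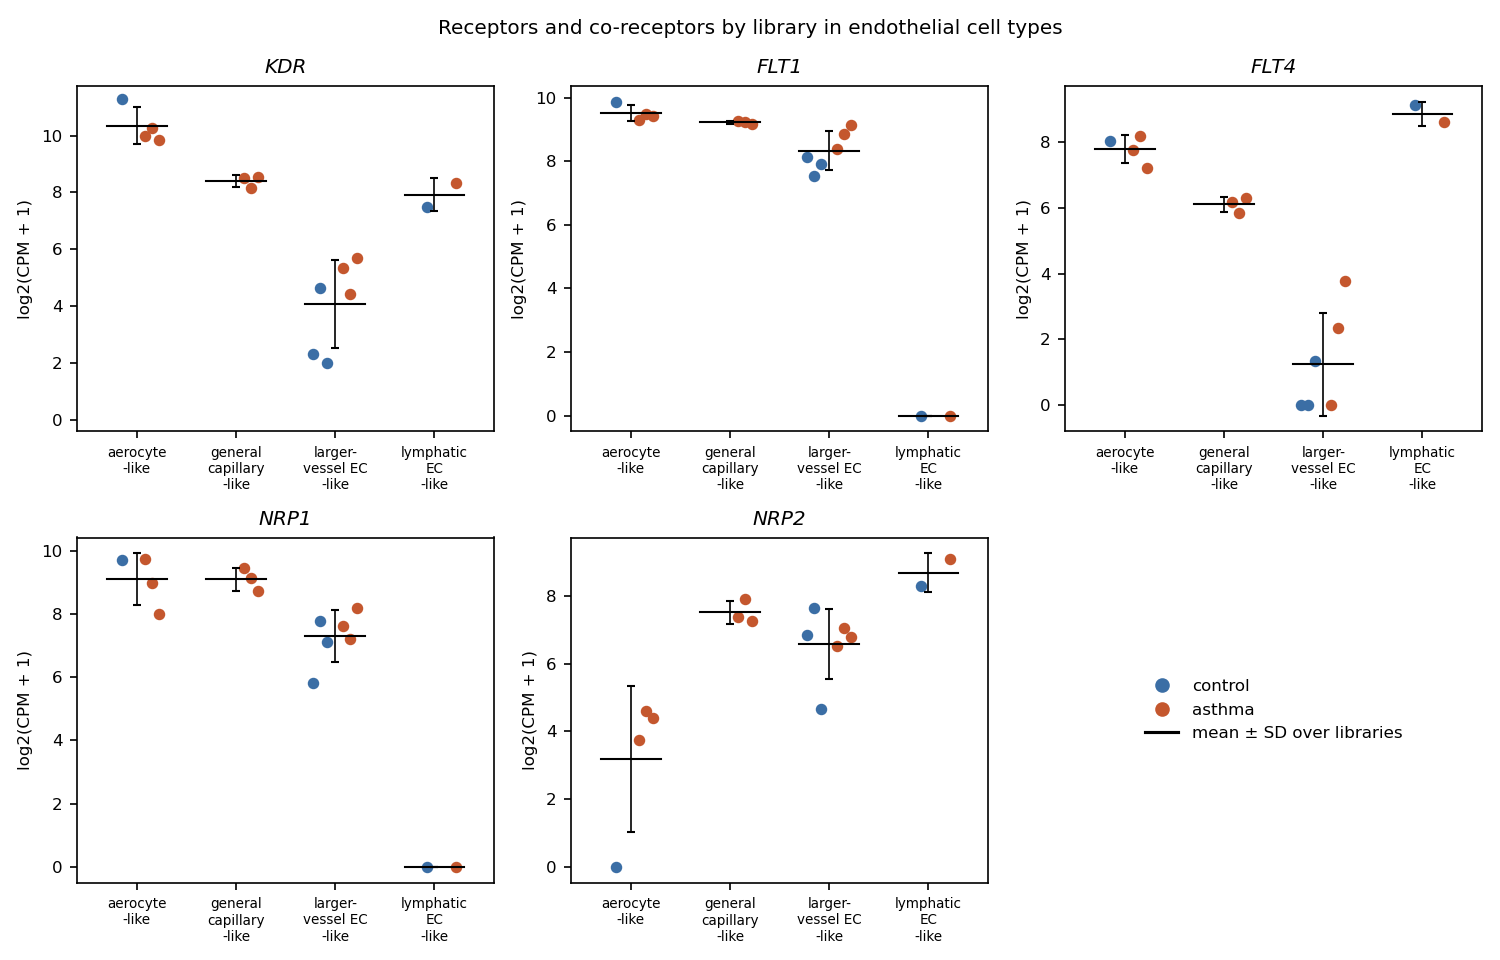
Levels of KDR, FLT1, FLT4, NRP1 and NRP2 by library, as log2(CPM + 1), in aerocyte-, general capillary-, larger-vessel EC- and lymphatic EC-like cells, with points for libraries and bars for the mean ± SD. The mean of KDR was 1410 CPM in aerocyte-like and 23.5 CPM in larger-vessel EC-like cells, and that of FLT1 744 and 348 CPM.

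The co-receptor NRP1, which strengthens signalling of VEGFA through KDR, was highest in the capillary EC-like cells. It was at 829 CPM in aerocyte-like cells of control replicate 2 and at 848, 505 and 253 CPM in those of the asthma libraries, and at 691, 563 and 418 CPM in general capillary-like cells of the asthma libraries, so that these cell types overlapped. Larger-vessel EC-like cells had 174 ± 79.6 CPM (SD, n = 6), AT2-like cells 184 ± 48.5 CPM and Fib-like cells 142 ± 55.5 CPM, each within the spread of the next. Capillary EC-like cells exceeded larger-vessel EC-like cells in 5 of 5 libraries by 1.97 ± 1.24 on the log2 scale (exact p = 0.0625). In lymphatic EC-like cells NRP1 had 0 UMIs, with the same limit of 8.67 CPM.

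NRP2, the co-receptor that binds VEGFC, had another pattern. Lymphatic EC-like cells held 311 and 544 CPM. Alveolar macrophage-like cells, which are not vessel cells, held 204, 275 and 291 CPM in the control and 278, 196 and 365 CPM in the asthma libraries, with overlapping groups, and the macrophage-like class gave 75.9% of all NRP2 UMIs. Interstitial macrophage-like cells had less in 6 of 6 libraries, with a difference of 1.03 ± 0.34 (SD) on the log2 scale (exact p = 0.03125). For NRP1 the difference between these macrophages was -0.89 ± 0.96 (SD, n = 6, exact p = 0.125). Among capillary EC-like cells, NRP2 was at 186 ± 47.1 CPM (SD, n = 3) in general capillary-like and 14.0 ± 10.4 CPM (SD, n = 4) in aerocyte-like cells, the opposite order to KDR. The aerocyte-like mean includes 0 UMIs in control replicate 2, which allows up to 113 CPM. Capillary EC-like cells as a whole were above larger-vessel EC-like cells in NRP2 in 0 of 5 libraries. The difference was -2.14 ± 3.17 (SD) on the log2 scale (exact p = 0.0625). Capillary EC-like cells had 1 and 0 NRP2 UMIs in control replicates 1 and 2, so the size of this difference is not exact. Endothelial-like cells exceeded Fib-like cells in NRP2 in 6 of 6 libraries, by 2.83 ± 1.02 (SD) on the log2 scale (exact p = 0.03125).

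Asthma and control libraries were compared by edgeR's quasi-likelihood test on summed UMIs, with Benjamini-Hochberg adjustment over all genes tested. A call needed an adjusted p under 0.05 together with a log2 fold change beyond 0.25 in either direction. Over whole libraries, in which fewer cells of a type and less RNA per cell cannot be told apart, 0 of the 9 genes were called, where 0.0839% of 14306 genes were. At an unadjusted p under 0.05 there were 6 of the 9, against 12.9% of all genes, and DESeq2 called 5 of the 9, against 4.53%. For 6 of the 9, every asthma library was above every control library, against 15.6% of all genes.

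KDR was at 2.95, 5.45 and 3.06 CPM in the control and 25.2, 24.8 and 23.0 CPM in the asthma libraries, without overlap. Its log2 fold change was 2.52 ± 0.28 (SE), with an edgeR adjusted p of 0.0523. FLT1 was at 3.45, 2.36 and 6.96 against 18.3, 20.03 and 25.05 CPM (log2 fold change 2.19 ± 0.36, edgeR adjusted p = 0.113). VEGFA was at 31.8, 25.1 and 29.6 against 79.3, 43.0 and 67.2 CPM (log2 fold change 0.97 ± 0.22, edgeR adjusted p = 0.188). All 3 genes were separated by group in every library. VEGFC and FLT4 also did not overlap between groups (log2 fold changes of 1.89 and 1.47, edgeR adjusted p = 0.213 and 0.243), and neither did NRP1 (0.64, adjusted p = 0.411). PGF was high in asthma replicates 8 and 10 only, at 34.1 and 34.6 CPM, while asthma replicate 11 had 5.04 CPM, under each control library.

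The make-up of the libraries moved with these values. Endothelial-like cells were 1.65% ± 0.946 of control and 6.65% ± 1.73 of asthma cells, and AT1-like cells were 8.61% of epithelial-like cells in the control and 32.7% in the asthma group. With each class, and each kind of endothelial-like cell, given the same share in every library, a calculation added after seeing the data, the ratio of asthma to control for KDR went from 6.37 to 1.06. The ratio went from 4.96 to 1.47 for FLT1 and from 2.99 to 1.06 for FLT4. VEGFC kept a ratio of 1.92, against 4.05 as captured, and VEGFA one of 1.66, against 2.19, with AT1-like cells not held fixed among epithelial-like cells. For PGF, equal class shares alone brought the ratio from 3.27 to 1.11. For NRP1 it went from 1.75 to 1.28 with equal class shares and to 1.08 with equal shares of endothelial kinds too. After the last step the groups overlapped for KDR, FLT4 and NRP1, and stayed apart for FLT1, VEGFC and VEGFA. VEGFB and NRP2 had ratios of 1.04 and 1.22 as captured.

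**Figure D4:**
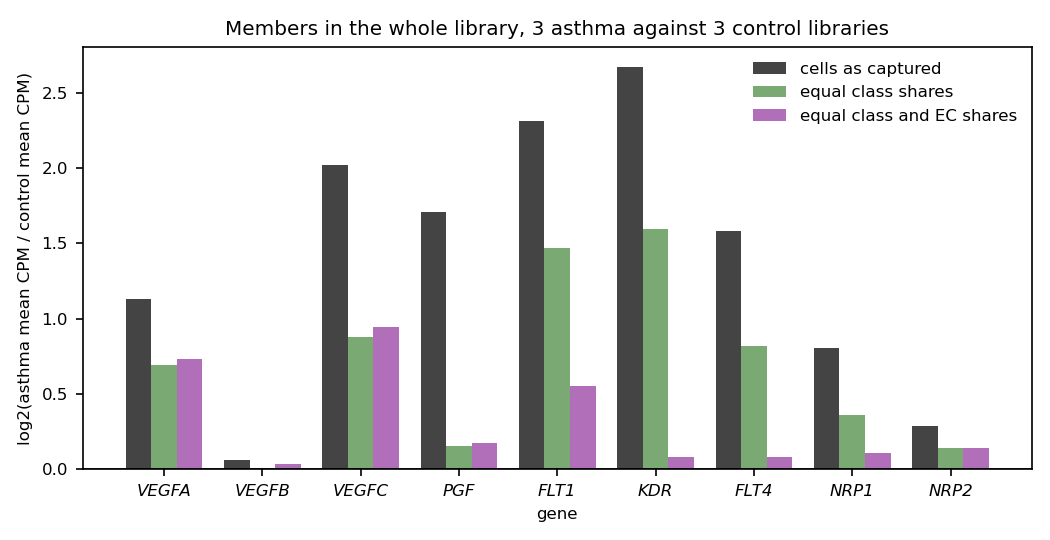
Log2 ratio of asthma to control for each of the 9 genes over the whole library as captured, with equal shares of classes, and with equal shares of classes and of kinds of endothelial-like cells. The ratio of KDR was 6.37, 3.02 and 1.06 in these steps, and that of VEGFC 4.05, 1.84 and 1.92.

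In endothelial-like cells summed over all kinds, FLT1 and NRP1 were called as higher and PGF as lower in the asthma group. These were 3 of the 8 genes tested, where 5.41% of 7858 genes were called. FLT1 was at 272, 222 and 226 CPM in the control and 458, 612 and 562 CPM in the asthma libraries (log2 fold change 0.97 ± 0.20 (SE), edgeR adjusted p = 0.0250). NRP1 was at 129, 226 and 131 against 471, 410 and 319 CPM (1.14 ± 0.25, edgeR adjusted p = 0.0330). PGF was at 27.6, 36.97 and 43.7 against 9.38, 5.38 and 2.91 CPM (-2.83 ± 0.44, edgeR adjusted p = 0.0141). Its values rest on 9, 8 and 34 UMIs in the control and 10, 5 and 3 UMIs in the asthma libraries. Lymphatic EC-like cells gave 7, 6 and 12 and then 3, 1 and 3 of these UMIs. Such cells were 12.7% of control and 2.29% of asthma endothelial-like cells, and their part in the PGF call was not tested. The groups did not overlap for FLT1, NRP1 and PGF, nor for VEGFC, so that 4 of the 9 genes were without overlap, against 28.5% of all genes. Leaving out control replicate 3 or asthma replicate 10 brought the number called to 0, and leaving out control replicate 1 or asthma replicate 11 brought it to 1. With at most 10% mitochondrial UMIs it was 1, FLT1 (edgeR adjusted p = 0.0406), with NRP1 at an adjusted p of 0.221 and PGF under the filter on low counts. DESeq2 called these 3 genes and VEGFC, against 6.01% of all genes.

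VEGFC was at 64.3, 41.6 and 55.3 against 117, 111 and 274 CPM in endothelial-like cells (log2 fold change 1.39 ± 0.38, edgeR adjusted p = 0.0622). KDR was at 208, 467 and 39.9 against 402, 688 and 426 CPM, with overlap (log2 fold change 1 ± 0.62, edgeR adjusted p = 0.382). The latter was 1.89 without control replicate 2 and 0.42 without control replicate 3. The kinds of vessel moved with the group here too. The summed level of the 10 capillary markers, of which FCN3 was the most abundant, was 5672, 5679 and 4989 CPM in the control and 12597, 14391 and 13880 CPM in the asthma libraries. The 9 larger-vessel markers, led by CPE, were at 14326, 14597 and 13173 against 9840, 5577 and 4667 CPM. Median UMIs per endothelial-like cell were 6874, 5593 and 6901 in the control and 3258, 3514.5 and 2479 in the asthma libraries, and the part of this depth was not tested. The lymphatic markers, led by MMRN1 and with TFF3 at 0, were at 781, 1932 and 608 against 475, 273 and 488 CPM. AT1 markers (led by CAV1) and mast cell markers (led by GATA2, with FCER1A and HPGDS at 0) were also higher in the asthma libraries, at 480 to 642 against 810 to 1099 CPM and 279 to 351 against 505 to 594 CPM, and T and NK markers (led by GZMB) lower, at 416 to 626 against 325 to 393 CPM, and the part of all these markers was not tested. With equal shares of the kinds of endothelial-like cells, added after seeing the data, the ratio of asthma to control was 1.45 for FLT1, 0.349 for PGF and 2.55 for VEGFC, while NRP1 was at 1.18 with overlapping groups and KDR at 0.808. These values use every library's cells, also where a kind had fewer than 10, such as 9 to 13 capillary EC-like cells in each control library and 3 to 11 lymphatic EC-like cells in each library.

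**Figure D5:**
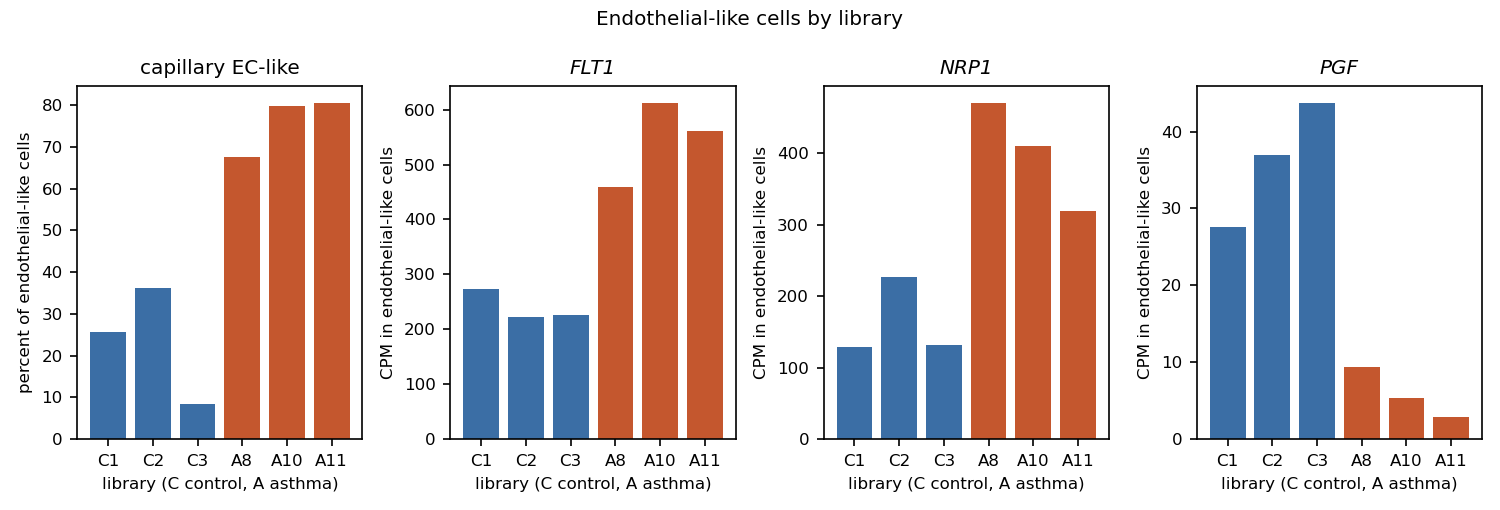
Bars for each library give the share of capillary EC-like among endothelial-like cells in percent and the levels of FLT1, NRP1 and PGF in endothelial-like cells in CPM. The asthma libraries are above the control libraries in the share (67.4% to 80.5% against 8.41% to 36.1%), FLT1 and NRP1, and below them in PGF.

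Within the kinds of vessel, no member passed the test. Capillary EC-like cells of control replicates 1 and 2 (12 and 13 cells) were set against 176, 188 and 277 cells of the asthma libraries, and 0 of the 7 genes tested were called, as were 0.0142% of 7055 genes. At an unadjusted p under 0.05 there were 3 of the 7, against 7.8% of all genes, and DESeq2 called 0 of them, against 0.0567%. KDR was at 1533 and 2489 against 780, 951 and 561 CPM (log2 fold change -1.13 ± 0.33, edgeR adjusted p = 0.591). The 9 capillary EC-like cells of control replicate 3, too few to enter, were at 781 CPM, inside the range of the asthma libraries. NRP1 was at 781 and 830 against 792, 522 and 361 CPM in capillary EC-like cells, with overlap. With a library left out, its log2 fold change ranged from -0.73 to -0.16. FLT1 was at 474 and 943 against 624, 688 and 615 CPM, also with overlap. Aerocyte-like cells were 8 of 12 and 13 of 13 of the control cells and 103 of 176, 124 of 188 and 98 of 277 of the asthma cells. In aerocyte-like cells alone KDR was at 2857, 2489 and 1231 CPM in the control libraries, of which the first and last rest on 8 and 6 cells, against 1015, 1223 and 915 CPM. In the capillary EC-like cells granulocyte markers, led by CSF2RB and with G0S2 at 0, were at 0 in the control against 109, 68.1 and 115 CPM. The values of 0 in control replicates 1, 2 and 3 allow up to 83.6, 113 and 213 CPM. Monocyte markers, led by LYZ and with CD300E and S100A12 at 0, were at 613, 905 and 710 against 573, 581 and 601 CPM. Median UMIs per capillary EC-like cell were 2100.5 and 1922 in the control against 2690.5, 3363.5 and 2161. The part of the make-up, the markers and the depth was not tested. VEGFC, KDR, FLT4 and NRP2 were the 4 of 7 genes with at least 20 UMIs that did not overlap, against 38.9% of all genes. For VEGFC and NRP2 this is not settled. Each had 1 and 0 UMIs in control replicates 1 and 2, where 3 counts would be 83.6 and 113 CPM. Against these stood 113, 115 and 271 CPM of VEGFC and 67.1, 86.2 and 107 CPM of NRP2 in the asthma libraries. In the 9 cells of control replicate 3, left out, both genes were at 284 CPM.

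In larger-vessel EC-like cells, 0 of 4 genes tested were called, as were 0% of 3787 genes. At an unadjusted p under 0.05 there were 2 of the 4, against 8.63% of all genes, and DESeq2 called 0 of them, against 0.396%. FLT1 and VEGFC, whose levels are given above, had log2 fold changes of 0.84 ± 0.27 and 1.45 ± 0.46 (edgeR adjusted p = 0.503 for both), and that of VEGFC was 0.75 without asthma replicate 11. Median UMIs per cell were 7829, 7745.5 and 7110 in the control and 5150.5, 5091 and 4209 in the asthma libraries. With VEGFB they were the 3 genes without overlap among 8 with at least 20 UMIs, against 14.3% of all genes. The 10 macrophage markers, led by APOE, also lay higher in the asthma libraries, at 86.6, 64.01 and 98.0 against 127, 140 and 138 CPM, as did the AT1 markers, led by CAV1 and with PDPN at 0, at 433, 472 and 448 against 485, 517 and 511 CPM, and their part in the result was not tested.

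Outside the endothelium, KDR of Fib-like cells came close to the threshold. It was at 7.73, 10.4 and 7.64 CPM in the control and 41.8, 24.5 and 52.5 CPM in the asthma libraries, with no overlap (log2 fold change 2.11 ± 0.40, edgeR adjusted p = 0.0513), and 0 members were called, where 0.379% of 6598 genes were. At an unadjusted p under 0.05 there were KDR and VEGFB, against 9.88% of all genes. DESeq2 called KDR, against 1.02% of all genes, as did the fits without a filter on low counts, with at most 10% mitochondrial UMIs, with predicted doublets removed, with the 9 genes kept in the clustering, and without asthma replicate 10. KDR, VEGFB and NRP2 were the 3 of 6 genes without overlap, against 15.9% of all genes. The 10 macrophage markers, led by APOE, were also higher, at 1922, 3045 and 1328 CPM in the control and 6765, 7527 and 6597 CPM in the asthma libraries. The MC markers, led by ITLN1 and with CALB2 at 0, stood at 3.87, 15.6 and 6.55 against 251, 78.9 and 18.05 CPM. The 7 AT1 markers, led by CAV1, were at 34.8, 78.1 and 48.04 against 122, 136 and 196 CPM, and the plasma cell markers, led by JCHAIN and with TNFRSF17 and POU2AF1 at 0, at 3.87, 3.47 and 4.37 against 7.2, 13.6 and 59.9 CPM. The 9 fibroblast markers, led by DCN, were lower, at 69348, 103717 and 60568 against 50313, 50877 and 49942 CPM. The part of these markers in the result was not tested.

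In AT2-like cells, NRP2 was at 67.9, 81.8 and 46.8 CPM in the control and 198, 213 and 160 CPM in the asthma libraries. The groups did not overlap, as for 12.2% of all genes. The log2 fold change of 1.45 ± 0.25 missed the threshold (edgeR adjusted p = 0.115), and the class had 0.0163% of 6150 genes called. Macrophage markers, led by FABP4 and with MSR1 at 0, were at 128, 86.9 and 37.5 against 227, 373 and 164 CPM, and T and NK markers, led by GZMB and with CD2 at 0, at 23.6, 40.9 and 37.5 against 17.3, 12.98 and 12.4 CPM, and their part was not tested. In epithelial-like cells as a whole, VEGFA was at 192, 390 and 155 against 1288, 435 and 460 CPM (1.45 ± 0.51, edgeR adjusted p = 0.644, and 0.83 without asthma replicate 8), beside the larger share of AT1-like cells given above. The groups did not overlap for VEGFA or NRP2, against 13.2% of all genes, and 0% of 9008 genes were called.

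In MC-like cells, KDR was at 16.9, 23.1 and 19.3 CPM in the control and 66.1, 35.2 and 108 CPM in the asthma libraries. The groups were apart, as for 10.9% of all genes, but the log2 fold change of 1.54 ± 0.43 had an edgeR adjusted p of 0.999, with 0.037% of 5409 genes called. The 12 epithelial markers, led by KRT19, were also higher there, at 3815, 3657 and 3097 against 4483, 3944 and 5767 CPM. Dendritic (4 of 8 at 0) and plasma cell markers were higher as well, at no more than 14.1 CPM in any library, and B cell markers lower, at no more than 7.70 CPM, and the part of these markers was not tested. In monocyte-like cells VEGFA was at 116, 60.3 and 93.9 CPM in the control and at 55.3, 25.3 and 58.6 CPM in the asthma libraries (-0.93 ± 0.30, edgeR adjusted p = 0.558). There 0.0273% of 7322 genes were called and 13.2% were without overlap. The 8 monocyte markers, led by LYZ, were lower too, at 15232, 14424 and 18060 against 11581, 11993 and 11208 CPM. The class was made up differently in the libraries: classical monocyte-like cells were 39 of 211, 177 of 274 and 185 of 215 cells in the control and 45 of 80, 43 of 85 and 7 of 576 in the asthma libraries. Within classical monocyte-like cells VEGFA was at 82.5, 91.1 and 107 CPM in the control libraries and at 91.7 and 42.9 CPM in asthma replicates 8 and 10, with overlap, and the 7 cells of asthma replicate 11, too few to enter, were at 151 CPM. Nonclassical monocyte-like cells had 1.20 to 6.79 CPM. Monocyte-like cells that were neither kind gave most of the VEGFA UMIs in control replicate 1 (149 of 175, from 105 cells at 197 CPM) and asthma replicate 11 (267 of 283, from 335 cells at 99.7 CPM), and at most 1 UMI in each of the other libraries. The part of this make-up in the result was not tested.

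In the other 13 classes and subtypes in which a member was tested, 0 of 39 such values were called by edgeR. The share of all genes called was 1.53% in the stromal-like class, which pools endothelial-like, Fib-like and muscle-like cells, 0.309% in myofibroblast-like, 0.0439% in basal-like, 0.0158% in B-like and 0.0127% in interstitial macrophage-like cells, and 0% in the others. At an unadjusted p under 0.05 there were 6 members in the stromal-like class, against 18.7% of all genes, where DESeq2 called VEGFC and FLT1, against 4.58% of all genes. There was 1 member each in T and NK-like cells (VEGFB), club-like cells (NRP2), interstitial macrophage-like cells (NRP1) and myofibroblast-like cells (VEGFA), against 6.85%, 5.2%, 5.51% and 5.91% of all genes.

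Other genes of the pathway were read in 5 lists, of which 72 genes are in the files. Over whole libraries none of the listed genes was called, where 0.0839% of 14306 genes were. At an unadjusted p under 0.05 there were 6 of 13 family members and binding partners and 3 of 14 hypoxia pathway genes, against 12.9% of all genes. There were also 1 of 29 signalling, 3 of 9 VEGF-responding and 1 of 4 angiopoietin and TIE genes. Median log2 fold changes were 0.69, -0.03, 0.06, 0.46 and 1.03 in this order, against -0.02 over all genes. The part of the library make-up was not tested. In endothelial-like cells, 1 of 6 tested family members and binding partners rose and 1 fell, where 5.41% of all genes were called in either direction, and 5 of the 6 had an unadjusted p under 0.05, against 22.7% of all genes, with a median log2 fold change of -0.31 against 0.02 over all genes. The one that rose was SEMA3G, a semaphorin of arteries that binds neuropilins, at 67.3, 13.9 and 48.9 CPM in the control and 387, 259 and 520 CPM in the asthma libraries (2.85 ± 0.40, edgeR adjusted p = 0.0118). SEMA3D, another semaphorin, fell from 132, 314 and 60.5 to 30.9, 12.9 and 30.1 CPM (-2.82 ± 0.55, edgeR adjusted p = 0.0232). The groups did not overlap for either gene.

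Of 10 hypoxia pathway genes tested in endothelial-like cells, 2 were called, against the same 5.41% of all genes. At an unadjusted p under 0.05 there were 5 of the 10, against 22.7% of all genes. EPAS1, the HIF-2α gene, rose from 1720, 1742 and 1558 to 5955, 9177 and 7415 CPM (1.96 ± 0.22, edgeR adjusted p = 0.0060), and ANKRD37 fell (-1.31, adjusted p = 0.0392). The median was -0.21. Of 7 genes known to respond to VEGF, 3 were called, against 5.41%, and 3 had an unadjusted p under 0.05, against 22.7%. ESM1, a tip cell gene, and DLL4, a Notch ligand, rose (2.44 and 1.31, edgeR adjusted p = 0.0436 and 0.0289) and NR4A1, an immediate-early gene, fell (-1.92, adjusted p = 0.0277), with a median of 0.32. Of 25 signalling genes downstream of the receptors, 0 were called by edgeR and 3 had an unadjusted p under 0.05, against 22.7% of all genes, with a median of 0.05. Of the 2 angiopoietin and TIE genes tested, 0 were called and 1 had an unadjusted p under 0.05. The capillary and larger-vessel markers given above differed between the groups in the same cells, and their part in these calls was not tested. In capillary and larger-vessel EC-like cells taken alone none of the listed genes was called, where 0.0142% of 7055 and 0% of 3787 genes were.

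Genes with the pattern most like each member were sought over the 22 cell types, among 11879 genes, by Pearson's r of the mean log2(CPM + 1), which describes these types and carries no test, since the types share libraries. FLT1 was most like SOX17, an endothelial transcription factor (r = 0.981), FLT4 most like PCDH12, an endothelial cadherin gene (0.961), KDR most like SEMA6A (0.921) and VEGFC most like LEPR, the leptin receptor (0.897). The genes expressed in more classes had weaker partners. NRP1 was most like MAN2C1 (0.811), VEGFA most like CES1 (0.799), ahead of the AT1 water channel gene AQP4 in the third place, NRP2 most like ACP2, a lysosomal phosphatase (0.797), and VEGFB most like CHCHD6 (0.721). Among the 9 themselves, VEGFC and FLT1 were the most alike (0.795), followed by VEGFC and KDR (0.771) and KDR and FLT4 (0.752).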

How the data were processed

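The deposited values are raw counts of UMIs for each gene in each barcode, which the authors obtained with Cell Ranger and the macFas6 assembly. The submitters' processing notes name Cell Ranger 2.1.1 and the file headers 4.0.0. The 9 members and the gene lists were chosen with earlier results of these data known. Kept barcodes had over 500 and under 5000 genes, 500 UMIs or more, and a share of 37 mitochondrial genes no larger than 25%. Each cell was scaled to 10000 and log-transformed, and 2000 variable genes, without members and listed pathway genes, gave 10 principal components for Leiden clustering at a resolution of 0.8 (scanpy 1.11.5, Python 3.11.15). Clusters were named from fixed marker lists of 11 classes and their subtypes, with at least 3 markers, since the authors' cell annotation was not used here. Scrublet marked 10 cells by its own threshold and so had not worked, and doublets were left in, with 793 cells removed in an alternative.

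Counts were summed per library and type (at least 10 cells, 2 libraries per group) and tested with edgeR 4.0.16 (R 4.3.3) after TMM normalization and filterByExpr, with SEs from the log2 fold change and F statistic. DESeq2 1.42.0 was an alternative. Each library is 1 monkey. Counting limits (3 counts for a value of 0) cover counting error only. Types were compared within libraries on log2(CPM + 1) by a two-sided exact sign-flip test. The text names the 9 members, the listed genes that were called and the gene most like each member, except that of PGF, which is not reported here. The tests were checked on simulated data.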

Additional observations from a re-analysis of the deposited data

Results flagged for a closer look

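The following ratios of asthma to control are given because every asthma library lay on one side of every control library in that cell type, while the direction was the opposite, without overlap, in another cell type. The differences between cell types were not tested, and edgeR called none of these genes in these cell types.

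VEGFA was lower in the asthma group in monocyte-like cells, with a ratio of 0.515, and in B-like cells, with a ratio of 0.528 (16.9, 9.98 and 17.4 against 9.13, 6.65 and 7.59 CPM). The B-like values of the asthma libraries rest on 7, 4 and 1 UMIs, and 3 counts in asthma replicate 11 would be 22.8 CPM, above every control value. The monocyte-like class was made up differently between libraries, with 335 of 576 cells of asthma replicate 11 neither classical nor nonclassical, and within classical cells the groups overlapped. It was higher in myofibroblast-like cells, with a ratio of 3.05 from 2 libraries per group (40.1 and 73.4 against 235 and 111 CPM), where asthma replicate 8 rested on 10 cells.

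VEGFB was higher in T and NK-like cells, with a ratio of 1.37, and in interstitial macrophage-like cells, with a ratio of 1.29 (117, 97.2 and 100.4 against 158, 126 and 120.3 CPM). It was lower in larger-vessel EC-like cells, with a ratio of 0.590 from 2 to 15 UMIs per library, and in Fib-like cells, with a ratio of 0.722.

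KDR was higher in MC-like cells, with a ratio of 3.53, and in Fib-like cells, with a ratio of 4.61. It was lower in capillary EC-like cells, with a ratio of 0.380, where the control value rests on 25 cells of 2 libraries and the 9 cells of control replicate 3, left out, were at 781 CPM.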

How the results depend on the processing

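Depth limits these results through the few endothelial-like and AT1-like cells of the control libraries, and members under the filter on low counts could not be tested. No paired analysis was possible because the control and asthma replicates share no numbers. With at most 10% mitochondrial UMIs, capillary EC-like cells could not be fitted, for want of control cells. Where leaving out a library left 1 in a group, it was assumed to vary like the others.

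Of the 28 log2 fold changes tried under other settings, 23 kept their sign throughout. The number of members called over whole libraries was 5 with DESeq2, 1 without a filter on low counts, 1 with at most 10% mitochondrial UMIs and 0 to 1 with a library left out. In endothelial-like cells it was 5 without a filter, 1 with at most 10% mitochondrial UMIs and 0 to 3 with a library left out. In Fib-like cells it was 1 with DESeq2, 2 without a filter, 1 with at most 10% mitochondrial UMIs, 1 with doublets removed, 1 with members kept in the clustering and 0 to 1 with a library left out. In the stromal-like class it was 2 with DESeq2, 5 without a filter, 1 with doublets removed and 0 to 3 with a library left out. Without a filter it was 1 each in monocyte-, dendritic-, MC-, capillary EC- and AT2-like cells and 2 in larger-vessel EC-like cells. The cause was not tested.

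With equal shares of endothelial kinds, chosen after seeing the data, the log2 ratio of mean CPM in endothelial-like cells was -0.31 for KDR and 0.11 for NRP2, against 1.08 and -0.75 as captured and edgeR fold changes of 1 and -0.83. For VEGFB over whole libraries this ratio was 0.0047 with equal class shares and 0.031 with equal endothelial kinds too, against 0.061 as captured, so that only the edgeR value of -0.10 had the other sign. With members kept in the clustering, FLT1 in capillary EC-like cells was at -0.055 and the VEGFA difference of granulocyte- and monocyte-like cells at -0.093. The differences of capillary and larger-vessel EC-like cells then came to 6.58 (KDR), 1.28 (FLT1), 7.38 (FLT4) and 2.06 (NRP1) over 6 libraries, but there these genes helped to set the types compared, so these values are no test. The FLT1 difference of aerocyte- and general capillary-like cells was -0.17 with at most 10% mitochondrial UMIs, -0.019 with doublets removed, -0.0024 at a resolution of 1.6 and -0.0063 with members kept in the clustering.

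With a library left out, log2 fold changes ranged from -1.31 to 0.066 for NRP2 in endothelial-like cells, from -0.13 to 0.71 for FLT1 in capillary EC-like cells, and over whole libraries from -0.052 to 0.29 for NRP2 and from -0.23 to 0.20 for VEGFB. Differences ranged from -0.16 to 0.31 for VEGFA (granulocyte- and monocyte-like), from 2.67 to 3.33 for KDR (endothelial- and MC-like), from 0.95 to 1.13 for NRP2 (the macrophages), from 2.53 to 3.101 for NRP2 (endothelial- and Fib-like), from 4.95 to 5.57 for VEGFA (epithelial- and macrophage-like) and from 2.81 to 3.07 for VEGFB (Fib- and T and NK-like), and with 5 libraries no such test can pass.

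Thinned to 1000 UMIs, the share with a KDR UMI was 58.5% of aerocyte-like and 24.5% of general capillary-like cells (48.2% unthinned), with KDR and FLT1 32.2% of aerocyte-like cells (66.1% unthinned), with VEGFA 89.6% of AT1-like cells and with PGF 29.7% of MC-like cells (80.5% unthinned).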
